A study of Rattus norvegicus with 8 samples.

Results

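AMPA and kainate receptors are the ionotropic glutamate receptors that carry most fast excitatory transmission and its modulation in the hippocampus, and the 9 genes that encode their subunits are described here in adrenalectomized rats infused with vehicle or corticosterone (CORT). The 4 AMPA genes, Gria1 to Gria4, and the 5 kainate genes, Grik1 to Grik5, were taken by symbol from a table of 13272 gene symbols. They have 18 of its 16266 transcript rows, and each of the 9 genes was found. Every rat was adult, 3 to 4 months old per the labels, and had lost its own source of corticosterone by adrenalectomy. Over 30 min, 4 rats received 0.45% saline and 4 received Corticosterone-2-hydroxypropyl-Beta-cyclodextrin at 0.75 mg/mL, and whole hippocampi were collected 2 h after the infusion began. Per the study's methods, all rats drank saline with added corticosterone after surgery, and it was withdrawn for a washout before the infusion. The vehicle is labelled as saline alone, so corticosterone and its cyclodextrin carrier cannot be told apart. The labels give the strain as Sprague-Dawley and the time as ZT 2, whereas the study's methods name Lister Hooded rats and put the start of the infusion, not the collection, at ZT 2. Those methods also state that all rats were male and give a younger age than the labels. The comparison asks which hippocampal transcripts differ soon after corticosterone is given to rats without adrenals.

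AMPA receptors are tetramers of GluA1 to GluA4, encoded by Gria1 to Gria4. GluA2, after RNA editing of its pore, makes the channel nearly impermeable to calcium, and the insertion of AMPA receptors at synapses underlies much of the expression of long-term potentiation. Kainate receptors are tetramers of GluK1 to GluK5. GluK1, GluK2 and GluK3 form channels on their own, whereas GluK4 and GluK5 bind kainate with high affinity and work only together with the first 3. In the hippocampus, kainate receptors are best known at mossy fibre synapses on CA3 pyramidal cells and on interneurons.

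The values are FPKM, fragment counts scaled for transcript length and for library size, with 1 value estimated by the authors for each group of 4 rats. No value for a single rat is used here, so no spread over rats, no overlap of groups and no test between groups can be given, and a difference in FPKM is described without saying that it exceeds the error. Differences are given as the log2 ratio of the CORT over the vehicle FPKM, without a pseudocount, and a ratio of at least 1.2-fold is used as a yardstick. FPKM is scaled for transcript length, so levels of genes are set side by side, but only as a rough guide. The split of fragments among rows is an estimate and the authors removed low-count transcripts. Ranks, shares and ratios of level between genes are therefore approximate. Depth per library is unknown. Whole hippocampus was sequenced, so fewer cells of a type and less RNA per cell cannot be told apart.

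Genes known to be induced by glucocorticoids were checked first. Of 8 such genes (Per1, Fkbp5, Sgk1, Tsc22d3, Klf9, Klf15, Ddit4 and Zbtb16), 8 were at least 1.2-fold higher in the CORT group, against 7.84% of all symbols. Their log2 ratios ran from 0.60 for Klf9 to 1.19 for Sgk1, with a median of 0.91. The median over all 13272 symbols was 0.020. The study names Per1, Sgk1, Tsc22d3, Klf9 and Klf15 as under corticosteroid control partly from these same rats, and the list was written with earlier results known. The count is therefore not an independent check. The total FPKM of the table was 571620 in the vehicle group and 608429 in the CORT group, and 5S ribosomal RNA alone went from 735 to 28006 FPKM.

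With the rows of each gene summed, 9 of the 9 subunit genes were higher in the CORT group, by log2 ratios between 0.040 and 0.38 with a median of 0.12. Gria3 and Grik4 were lower when the columns were rescaled to the same total FPKM, a total that includes 5S ribosomal RNA. Grik1 was lower (-0.76) with only its top row or only rows of at least 1 FPKM in both groups, and 5 genes were lower when centred on pan-neuronal markers. Over all gene symbols, 55.0% were higher in the CORT group. Grik3, the only subunit gene past the yardstick on these sums, was at least 1.2-fold higher, against 7.84% of all symbols, and fell short of it with a pseudocount of 1 FPKM (log2 ratio 0.25) and when centred on pan-neuronal markers (0.22). At least 1.2-fold lower were 0 subunit genes, against 11.4% of all symbols. The AMPA total was 351 FPKM under vehicle and 377 under CORT, 7.48% higher, and the kainate total was 107 and 118 FPKM, 9.75% higher.

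**Figure D1:**
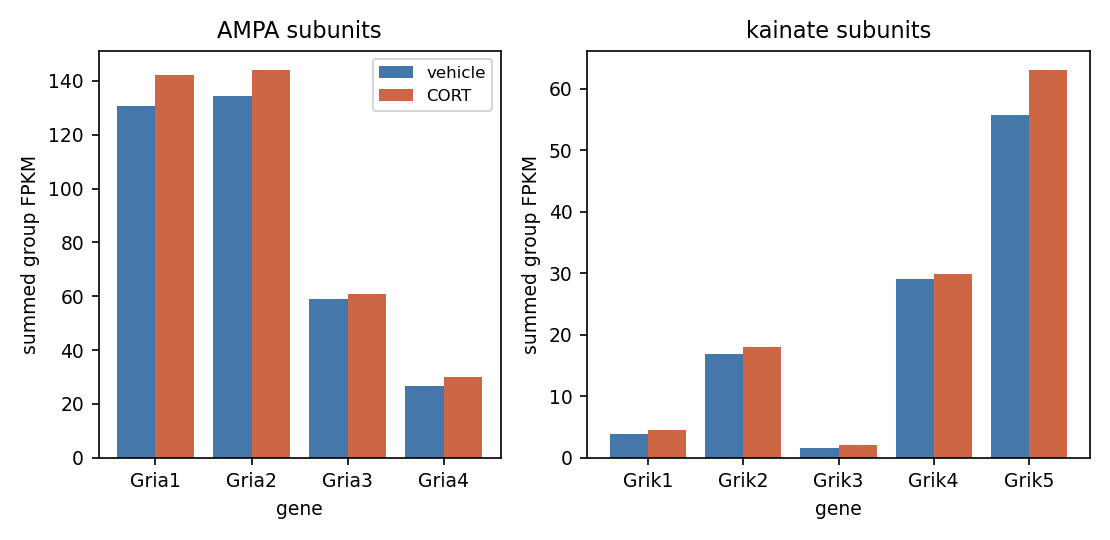
Bars give the FPKM of each gene, summed over its transcript rows, in the vehicle (blue) and CORT (orange) groups, with a separate vertical axis for each receptor family. Each bar is 1 group value from 4 rats, so there are no error bars, and Gria1 and Gria2 stand at 131 to 144 FPKM whereas Grik3 is near 2 FPKM.

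Gria2, the subunit that sets calcium permeability, had the highest level of the 9 genes, with 134 FPKM under vehicle and 144 under CORT. Gria1, whose product is inserted at synapses during potentiation, lay next to it at 131 and 142 FPKM. They ranked 646 and 662 of 13272 symbols by mean FPKM. The ratio of Gria1 to Gria2 was 0.971 with vehicle and 0.987 with CORT. Their log2 ratios between groups were also alike, 0.12 for Gria1 and 0.098 for Gria2.

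Gria3 followed at 58.9 FPKM under vehicle and 60.9 under CORT, a log2 ratio of 0.048. Gria4, known from fast-spiking interneurons, was the lowest AMPA gene at 26.8 and 30.1 FPKM, and had the largest relative difference of the 4, a log2 ratio of 0.17. Gria1 and Gria2 carried 37.2% and 38.3% of the AMPA FPKM with vehicle, and 37.7% and 38.2% with CORT. Gria3 carried 16.8% and 16.1%, and Gria4 7.64% and 7.98%. The makeup of the AMPA family thus differed by less than 1 percentage point in each subunit between the group values.

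Among the kainate genes the high-affinity subunits led. Grik5, the partner subunit found in most brain kainate receptors, was at 55.8 FPKM under vehicle and 63.0 under CORT, a log2 ratio of 0.18. Grik4, which is concentrated in CA3 and the dentate gyrus, was at 29.0 and 29.8 FPKM and had the smallest log2 ratio of the 9 genes, 0.040. These 2 genes together stood at 84.8 FPKM with vehicle, 3.79 times the 22.4 FPKM of Grik1, Grik2 and Grik3, and with CORT the same ratio was 3.75.

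Grik2, the main channel-forming kainate subunit of principal cells, was at 16.9 FPKM under vehicle and 18.1 under CORT, a log2 ratio of 0.096. Grik1, best known from interneurons, was at 3.84 and 4.59 FPKM, a log2 ratio of 0.26 that falls just short of 1.2-fold. Grik3 was the least abundant of the 9 genes, at 1.62 and 2.11 FPKM, with the largest log2 ratio of 0.38. The 2 kainate genes with the largest ratios are therefore the 2 with the lowest levels. From Gria2 down to Grik3 the levels spanned 83.2-fold with vehicle and 68.3-fold with CORT. In order of level the genes ran Gria2, Gria1, Gria3, Grik5, Grik4, Gria4, Grik2, Grik1 and Grik3 by their mean FPKM. Neighbours in this order could not be separated by a spread over rats, and in the CORT group Grik5 was above Gria3 and Gria4 above Grik4.

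The rows behind these sums are Ensembl transcripts, and the table places the rows of a gene at 1 shared locus of the rn6 genome. Cufflinks divides the fragments of a gene among its overlapping transcripts, so the split between rows is an estimate. AMPA subunits are known to be spliced into flip and flop forms, but the table does not say which row is which. Of the 18 rows, 14 were higher and 4 lower in the CORT group, where 55.0% of all rows were higher. At least 1.2-fold higher were 5 rows, against 12.3% of all rows, and 1 row was at least 1.2-fold lower, against 13.3%. Those 6 rows all had a mean of under 5 FPKM, whereas the 11 rows of 5 FPKM or more had log2 ratios between -0.17 and 0.22.

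**Figure D2:**
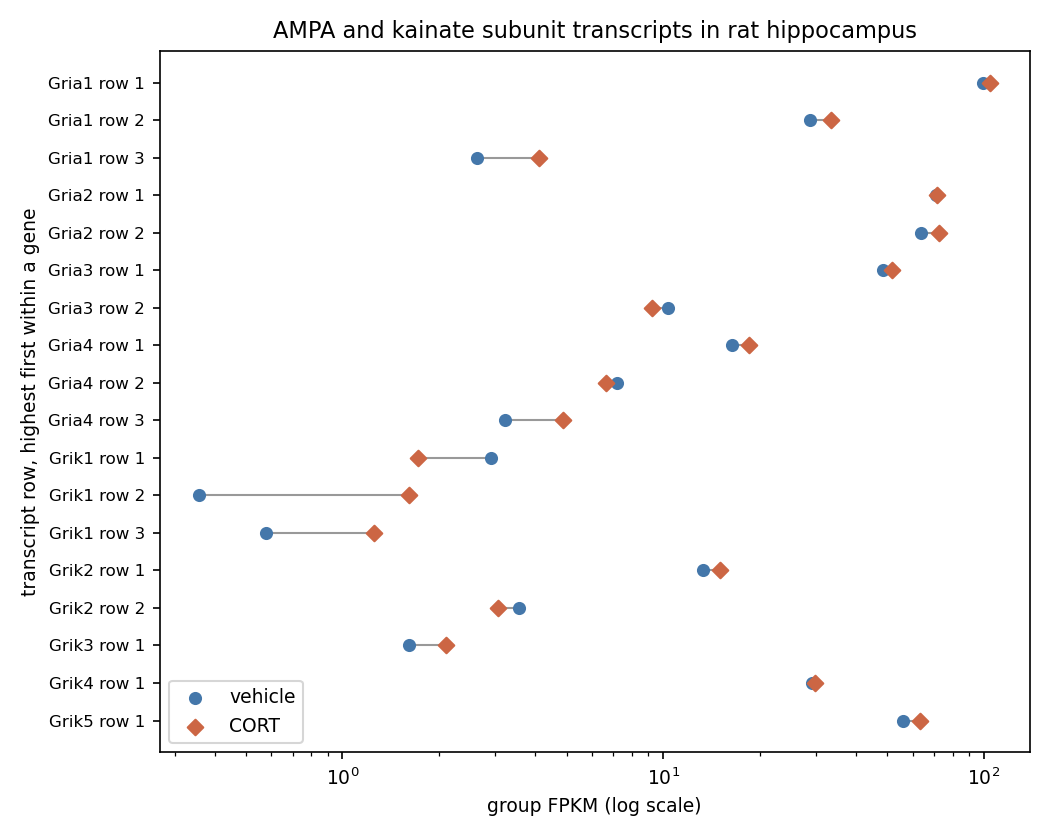
Each line is 1 of the 18 transcript rows, numbered from the highest mean FPKM within its gene, with the vehicle FPKM as a blue circle and the CORT FPKM as an orange diamond on a log axis. The long lines belong to rows under 5 FPKM, above all those of Grik1, and the rows above 5 FPKM lie close together.

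Gria1, on chromosome 10 between 42614712 and 42760200, has 3 rows. ENSRNOT00000071615.3 was at 99.2 FPKM under vehicle and 105 under CORT and held 76.0% and 73.6% of the gene's FPKM. ENSRNOT00000073148.2 was at 28.7 and 33.4 FPKM, and ENSRNOT00000081136.1 at 2.63 and 4.11 FPKM. All 3 rows were higher in the CORT group, and the log2 ratio was largest, 0.64, in the row of lowest level. Gria2, on chromosome 2 between 179584307 and 179704629, has 2 rows of like level. ENSRNOT00000077941.1 was at 71.0 and 71.5 FPKM, a log2 ratio of 0.0090, whereas ENSRNOT00000083361.1 was at 63.4 and 72.5 FPKM, a log2 ratio of 0.19. The second row carried 9.04 of the 9.49 FPKM by which Gria2 differed, and its share of the gene was 47.2% with vehicle and 50.3% with CORT.

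Gria3, on chromosome X between 127562659 and 127829753, has 2 rows that lay in opposite directions. ENSRNOT00000010367.6 was at 48.5 FPKM under vehicle and 51.7 under CORT, and ENSRNOT00000029031.7 at 10.4 and 9.20 FPKM, a log2 ratio of -0.17. Gria4, on chromosome 8 between 1548145 and 2045817, has 3 rows. ENSRNOT00000078765.1 was at 16.4 and 18.6 FPKM, ENSRNOT00000009542.5 at 7.17 and 6.63 FPKM, and ENSRNOT00000081171.1 at 3.21 and 4.87 FPKM. The middle row was lower in the CORT group and the other two were higher, with the lowest row at a log2 ratio of 0.60.

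Grik1, on chromosome 11 between 27811956 and 27971359, is the gene whose rows differed most. ENSRNOT00000042581.5 was at 2.91 FPKM under vehicle and 1.72 under CORT, a log2 ratio of -0.76. ENSRNOT00000051060.5 was at 0.358 and 1.61 FPKM, and ENSRNOT00000085629.1 at 0.579 and 1.26 FPKM, log2 ratios of 2.17 and 1.12. The first row held 75.6% of the gene's FPKM with vehicle and 37.5% with CORT. The sum over the 3 rows differed by 0.746 FPKM, whereas the first row alone differed by -1.19 FPKM.

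Grik2, on chromosome 20 between 53789759 and 54517709, has 2 rows, and they too lay in opposite directions. ENSRNOT00000076234.1 was at 13.3 FPKM under vehicle and 15.0 under CORT, and ENSRNOT00000037559.5 at 3.55 and 3.06 FPKM. Of the 6 genes with several rows, 4 (Gria3, Gria4, Grik1 and Grik2) had rows in both directions and 2 (Gria1 and Gria2) had all rows higher. The remaining 3 genes have 1 row each. Grik3 lies on chromosome 5 between 143500440 and 143715546, Grik4 on chromosome 8 between 46806146 and 47094352, and Grik5 on chromosome 1 between 81885520 and 81946714.

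The spread of log2 ratios over all transcripts widened as the level fell. Among the 1635 transcripts with a mean of 50 to 200 FPKM, the central 90% of log2 ratios ran from -0.17 to 0.24. Among the 4755 transcripts with a mean of 1 to 5 FPKM it ran from -0.79 to 0.72, and among the 832 under 1 FPKM from -1.92 to 1.94. Of the 18 subunit rows, 17 lay inside the central 90% of transcripts of their own band of level. The exception was ENSRNOT00000051060.5 of Grik1, at 2.17 in the band under 1 FPKM. Grik3, at 0.38 in the band of 1 to 5 FPKM, lay inside. These ranges describe transcripts, which are not replicates of a condition.

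**Figure D3:**
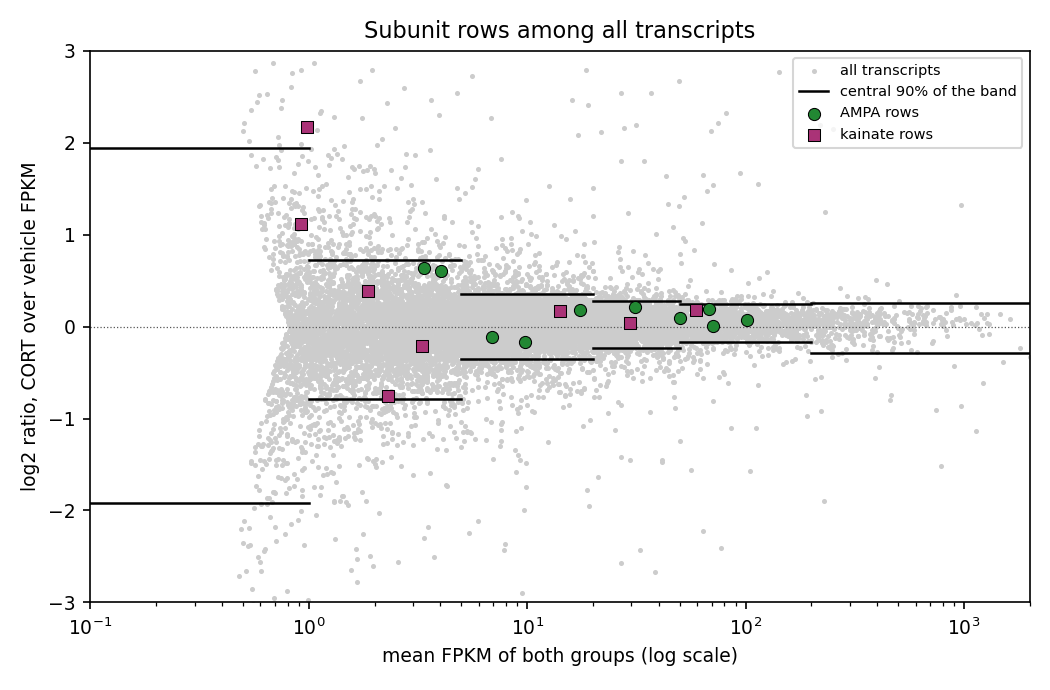
The log2 ratio of CORT over vehicle FPKM is plotted against the mean FPKM of both groups on a log axis, with all transcripts in grey, AMPA rows as green circles and kainate rows as purple squares, and black lines at the limits of the central 90% in each of 6 bands of level. Of the 18 subunit rows 17 fall between the lines, and 98 transcripts outside the axes are not drawn.

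AMPA receptors reach synapses with auxiliary subunits, such as the TARPs encoded by the Cacng genes and the cornichons, and with proteins that assemble, transport and anchor them. Lists of these proteins, of kainate receptor partners and of RNA-editing enzymes together hold 37 genes, of which 35 are in the table; Shisa9 and Gsg1l were not matched. In the CORT group 27 of the 35 were higher and 8 lower, where 55.0% of all symbols were higher, with a median log2 ratio of 0.10. The pan-neuronal markers had a median of 0.165. At least 1.2-fold higher were 3 of them, against 7.84% of all symbols, and at least 1.2-fold lower 1, against 11.4%.

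Of 13 AMPA auxiliary subunits, 8 (61.5%) were higher and 5 lower, close to the 55.0% of all symbols that were higher. Their median log2 ratio was 0.094. The most abundant were the cornichon Cnih2, at 304 FPKM under vehicle and 296 under CORT, and Prrt1, at 153 and 152 FPKM. Past 1.2-fold were Shisa6, a transmembrane partner of AMPA receptors, at 9.13 and 11.1 FPKM, and Shisa8, lower at 1.06 and 0.867 FPKM. Of all symbols, 7.84% were past it upwards and 11.4% downwards. The total of this list was 1.68% higher with CORT, next to 7.48% for the AMPA subunits themselves.

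Of 14 genes for the assembly, traffic and anchoring of AMPA receptors, 13 were higher, where 55.0% of all symbols were, with a median log2 ratio of 0.156. The pan-neuronal markers lay alike, with 8 of 9 higher and a median of 0.165. Nptxr, the neuronal pentraxin receptor, was at 319 FPKM under vehicle and 379 under CORT, and Nsf, an ATPase that binds GluA2, at 254 and 286 FPKM. Nptx2, a secreted pentraxin that clusters AMPA receptors and is induced by activity, was at 22.6 and 28.4 FPKM, a log2 ratio of 0.33. Grip2, a scaffold that binds the tail of GluA2, was at 4.04 and 5.12 FPKM, a log2 ratio of 0.34.

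Of 5 kainate receptor partners, 4 were higher, where 55.0% of all symbols were, with a median log2 ratio of 0.040. Past 1.2-fold were 0 of them, against 7.84% of all symbols upwards and 11.4% downwards. C1ql2 and C1ql3, secreted by mossy fibres and known to recruit kainate receptors, were the most abundant. C1ql2 was at 80.6 FPKM under vehicle and 72.0 under CORT, and C1ql3 at 69.8 and 71.8 FPKM. The 3 genes for adenosine deaminases acting on RNA differed little, with Adarb1, the enzyme that edits the pore of GluA2, at 25.6 and 25.4 FPKM and Adar at 24.7 and 27.1 FPKM.

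Some NMDA receptor subunits, the other main family of glutamate-gated channels, reached larger ratios in the same table. The median log2 ratio of the NMDA genes was 0.169, next to 0.176 for the kainate genes, 0.165 for the pan-neuronal markers and 0.110 for the AMPA genes. Of 7 genes, 7 were higher and 3 at least 1.2-fold higher, where 55.0% and 7.84% of all symbols were. Grin2b was at 3.98 FPKM under vehicle and 6.80 under CORT, a log2 ratio of 0.77, next to 0.38 for Grik3. Grin3a was at 1.84 and 2.51 FPKM and Grin2a at 9.21 and 12.1 FPKM, with log2 ratios of 0.45 and 0.40. The study already names Grin2a and Grin2b among the genes regulated by corticosterone in these same rats. The obligatory subunit Grin1, at 121 and 136 FPKM, had a log2 ratio of 0.17, close to that of Gria4. Grin2c (24.5 and 25.1 FPKM), Grin2d (1.28 and 1.36 FPKM) and Grin3b (1.31 and 1.41 FPKM) had log2 ratios of 0.035 to 0.11. The AMPA total was 2.15 times the NMDA total with vehicle and 2.03 times with CORT, and no test of this difference can be made.

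**Figure D4:**
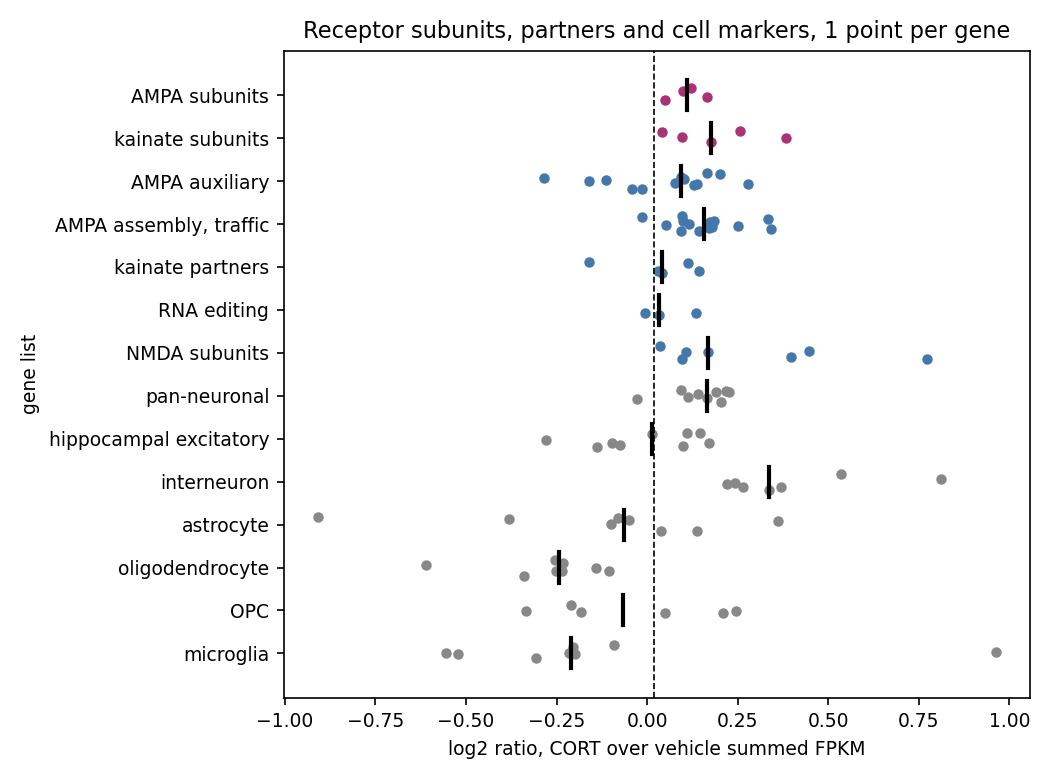
Each point is 1 gene, placed by the log2 ratio of its summed CORT over vehicle FPKM, with receptor subunits in purple, partners and NMDA subunits in blue, cell markers in grey, a black bar at each list's median and a dashed line at the median of all symbols, 0.020. The AMPA and kainate genes lie to the right of the line, as 8 of 9 pan-neuronal markers do, with 5 of the 9 subunit genes below the pan-neuronal median. To the left of the line lie the medians of the hippocampal excitatory (0.012), astrocyte, oligodendrocyte, oligodendrocyte precursor (OPC) and microglia markers. Thalamic, choroid plexus and meningeal markers are not drawn.

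Markers of cell types differed between the groups too. No marker that the table lists was at 0, but the authors had removed transcripts under 10 alignments, so this says little. The counts below stand beside 55.0% of all symbols that were higher in the CORT group. Of 9 pan-neuronal markers in the table, 8 were higher, with a median log2 ratio of 0.16 and a summed level of 3232 FPKM under vehicle and 3477 under CORT. This median is above the 0.12 of the 9 subunit genes. All 7 interneuron markers in the table were higher (median 0.33, summed 416 and 515 FPKM), whereas 5 of 9 hippocampal excitatory markers, the check of the labelled tissue, were (median 0.012, 2093 and 2194 FPKM). Of the glia, 0 of 8 oligodendrocyte markers were higher (median -0.24, 7597 and 6222 FPKM), 1 of 8 microglia markers (median -0.21, 263 and 227 FPKM), 3 of 8 astrocyte markers (median -0.065, 2818 and 2353 FPKM) and 3 of 6 markers of oligodendrocyte precursors (median -0.066, 172 and 168 FPKM). Most of the difference in the astrocyte sum lay in a single gene, Gfap, at 970 FPKM under vehicle and 517 under CORT. From tissue beside the hippocampus, 1 of 9 thalamic or habenular markers was higher (median -0.83, 45.1 and 25.8 FPKM), 2 of 8 choroid plexus markers (median -0.032, 7067 and 7023 FPKM) and 1 of 7 meningeal markers (median -0.74, 128 and 93.4 FPKM). The part of these differences in the subunit values was not tested. With the log2 ratios set against the pan-neuronal median, a scaling that moves the median of all genes by 0.16, 4 of the 9 subunit genes were higher and 5 (Gria1, Gria2, Gria3, Grik2 and Grik4) were lower.

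RefSeq promoter sequences of the GRCr8 assembly were matched by symbol for 6 of the 9 genes, Gria4 and Grik1 to Grik5, and the 250 bases before each start were searched on both strands, after the values above had been seen. The glucocorticoid response element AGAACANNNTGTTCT was in 0 of the 6 and in 0.0120% of all 33469 promoters, and its half-site TGTTCT, which the full element contains, was in 0 of the 6 and in 17.5% of all. These letters not being in this window says nothing of the receptor elsewhere in the genes. The GC box GGGCGG was in Grik3 and Grik5 and in 30.5% of all promoters, and the cAMP response element half-site TGACG in Grik2 and in 18.2% of all. GC content ran from 43.2% in Grik4 and 49.6% in Grik2 through 57.6% in Grik1, 59.6% in Gria4 and 70.8% in Grik5 to 81.6% in Grik3, where the median of all promoters was 51.2%.

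The promoters of Grik3 and Grik4 are shown because these genes had the largest and the smallest log2 ratio, and the sequences also stand at the ends of the range of GC content. Grik3 is on the plus strand (GRCr8 chr5:143052192-143052441) and Grik4 on the minus strand (GRCr8 chr8:52102064-52102313), both are written 5′ to 3′ on the gene's strand, and capitals mark the GC box on either strand, with 5 matches in Grik3 and 0 in Grik4.
Grik3: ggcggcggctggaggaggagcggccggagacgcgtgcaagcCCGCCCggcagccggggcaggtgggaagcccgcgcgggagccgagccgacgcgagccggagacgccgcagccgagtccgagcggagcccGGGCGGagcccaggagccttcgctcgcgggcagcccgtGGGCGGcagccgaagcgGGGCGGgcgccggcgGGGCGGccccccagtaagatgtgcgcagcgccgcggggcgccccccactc
Grik4: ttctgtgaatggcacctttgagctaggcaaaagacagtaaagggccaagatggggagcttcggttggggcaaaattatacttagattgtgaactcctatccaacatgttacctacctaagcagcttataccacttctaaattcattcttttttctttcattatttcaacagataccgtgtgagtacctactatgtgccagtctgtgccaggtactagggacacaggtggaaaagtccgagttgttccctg
The Grik3 stretch holds 41 CpG dinucleotides and the Grik4 stretch 3, beside a median of 5 over all promoters. The log2 ratio of Grik3 comes from 1.62 FPKM under vehicle and 2.11 under CORT and lay inside the central range of its band. Whether composition bears on the difference between the group values was not tested.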

How the data were processed

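Total RNA of 8 whole hippocampi was sequenced by the authors as stranded Illumina libraries. Per the labels, reads were processed with CASAVA 1.8.2, TopHat2 2.0.10 and Cuffdiff 2.2.0 on rn6. The deposited FPKM were estimated by the authors for each Ensembl transcript and group, with geometric normalization between libraries, corrections for multiply mapped reads, sequence bias and effective length, and removal of transcripts under 10 alignments. The deposited fold changes, test statistics, p-values and q-values are the authors' own comparison and were not used.

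Rows were taken by gene symbol and log2 ratios computed from the 2 group FPKM values, per row and per gene after summing its rows. No test was possible with 1 value per group, so a 1.2-fold ratio was counted beside its share in the whole table. Depth per library is not given by FPKM, so no interval was computed. Subunit genes, each with all its rows, were named in full; partner genes were named when past 1.2-fold with at least 1 FPKM in one group, or among the 2 most abundant of their list, and NMDA subunits and glucocorticoid targets as whole lists. Lists were matched by exact symbol. Members and lists were chosen with earlier results of these data known. A promoter was to be shown only if genes moved together past the fold; that did not happen, and the promoters were searched and shown after the values were seen. Protein sequences were not analysed here, and a further planned list of receptor genes is not reported. The log2 ratios, counts and sums were checked on a copy of the vehicle values with known folds planted, and the other computations were not. The computations used Python 3.11.15, numpy 2.4.6, pandas 2.3.3 and matplotlib 3.10.9. The alternatives tried were pseudocounts, filters, scalings, units and folds.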

Additional observations from a re-analysis of the deposited data

How the results depend on the processing

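All 9 genes were higher in the CORT group on summed FPKM, and 9 stayed higher with either pseudocount, with at least 1 FPKM in one group and with centring on the median of all transcripts. With the columns rescaled to the same total FPKM, 7 were higher and Gria3 and Grik4 were lower. Those totals include 5S ribosomal RNA, at 735 FPKM under vehicle and 28006 under CORT. With only rows of at least 1 FPKM in both groups, or only the top row of each gene, 8 were higher. Grik1 was then lower, at a log2 ratio of -0.76, since that leaves 1 of its rows. With a pseudocount of 1 FPKM the log2 ratio of Grik3 was 0.25, and centred on the pan-neuronal markers 0.22, both under 1.2-fold. Centred on the pan-neuronal markers, chosen after seeing the data, 4 genes were higher.

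Of the 18 rows, 14 were higher, 4 lower, 5 at least 1.2-fold higher and 1 at least 1.2-fold lower. With rows summed these counts were 9, 0, 1 and 0 of 9 genes, and with the top row of each gene 8 were higher, 1 lower, 1 past the fold upwards and 1 past it downwards. After rescaling to equal totals 7 rows were lower and 2 past the fold downwards, and after centring on the pan-neuronal markers 8 and 4, with a median log2 ratio of 0.0072 in place of 0.17. A minimum of 1 FPKM in both groups left 3 rows past the fold upwards, and a 1.1-fold threshold gave 10 upwards and 3 downwards. Beyond what each setting removes, the cause was not tested.

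Leaving out each rat was not run, since 1 value per group was used. No paired analysis was possible because each group enters as a single FPKM value. Without depth, low FPKM have no stated floor.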

Other observations

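The interneuron markers, counted above as a list, had a larger median ratio than the subunit genes. Sst was at 151 FPKM under vehicle and 195 under CORT, Pvalb at 138 and 165 FPKM, and Vip at 9.22 and 13.4 FPKM, with log2 ratios of 0.37, 0.26 and 0.53. Gad1 and Gad2, the enzymes that make GABA, were at log2 ratios of 0.22 and 0.24. Gria4 and Grik1, the subunit genes best known from interneurons, were at 0.165 and 0.26, where the pan-neuronal median was 0.165. With only its top row Grik1 was at -0.76. Whether these values relate to interneurons was not tested. All genes of this paragraph were named after their values were seen.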
